A study of Mus musculus with 6 samples.

Results

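The miR-183/96/182 cluster is a group of 3 microRNA hairpins, Mir183, Mir96 and Mir182, that lie close together on 1 strand of mouse chromosome 6. Each hairpin gives a 5p arm and a 3p arm, and the 6 mature forms were taken from the deposited microRNA table by their exact names. All 6 were found among the 1224 names in the table, of which 679 are mouse names. The other names either end in x, y or z in place of 5p and 3p or are numbered predictions of the submitters.

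A microRNA cluster is copied as 1 long primary transcript. The nuclease Drosha and its partner DGCR8 cut each hairpin out of it, Dicer removes the loop, and usually 1 arm is kept in an Argonaute protein as the guide while the other, the passenger, is degraded. The guide finds its target messenger RNAs mainly through the seed, bases 2 to 8 from its 5′ end. The cluster is best known from the sensory organs, where its members are abundant in photoreceptors, hair cells and sensory neurons, and a change in the seed of miR-96 causes hearing loss in humans and mice. METTL3, the active enzyme of the complex that places N6-methyladenosine on RNA, was shown in other cells to mark primary microRNA transcripts, a mark that DGCR8 binding was tied to.

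The study sequenced small RNA of GC-1spg, a single immortalised line that was made from type B spermatogonia of the mouse, mitotic germ cells of the testis. Of its 6 libraries, 3 came from cells transfected with an siRNA against METTL3 (si-METTL3) and 3 from cells transfected with a control siRNA (si-NC), all collected at 48 h. Whether a group's libraries come from separate cultures is not stated in the labels, so p-values measure the spread between libraries, which may be technical. They also print the same siRNA sequence for both groups and call the control cells untreated as well as siRNA-transfected, and the messenger RNA of Mettl3 is not measured in microRNA counts, so the knockdown could not be checked here.

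The 5p arms are shown because they are the abundant guides of each hairpin and because their seeds differ by single bases. They are mature sequences from RefSeq on GRCm38.p6, with the seed in capitals.
mmu-miR-183-5p: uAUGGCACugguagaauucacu
mmu-miR-96-5p: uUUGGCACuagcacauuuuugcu
mmu-miR-182-5p: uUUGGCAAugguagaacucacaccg
Positions are counted from 1 at the 5′ end, with T written for U. From mmu-miR-183-5p to mmu-miR-96-5p the seed holds the single substitution A2T. From mmu-miR-96-5p to mmu-miR-182-5p it holds C8A alone, and from mmu-miR-183-5p to mmu-miR-182-5p it holds both A2T and C8A. No seed is therefore shared between the 3 guides. Aligned from the 5′ end over their whole length, without gaps, the order of likeness is another one: mmu-miR-183-5p and mmu-miR-182-5p are identical at 18 of the 22 bases compared (81.8%), against 13 of 22 (59.1%) for mmu-miR-183-5p and mmu-miR-96-5p and 12 of 23 (52.2%) for mmu-miR-96-5p and mmu-miR-182-5p.

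The 3p arms are shown for their low abundance and because 1 of them rose.
mmu-miR-183-3p: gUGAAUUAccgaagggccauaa
mmu-miR-96-3p: cAAUCAUGuguagugccaauau
mmu-miR-182-3p: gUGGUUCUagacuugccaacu
For all 6 forms the sequence in the deposited table equals the RefSeq sequence, and none of them is listed under a second name.

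The hairpins themselves show how the arms sit, with the mature arms in capitals.
Mir183: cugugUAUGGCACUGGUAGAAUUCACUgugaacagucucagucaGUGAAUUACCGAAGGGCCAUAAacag
Mir96: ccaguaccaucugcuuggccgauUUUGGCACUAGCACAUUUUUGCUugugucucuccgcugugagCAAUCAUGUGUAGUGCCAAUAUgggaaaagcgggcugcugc
Mir182: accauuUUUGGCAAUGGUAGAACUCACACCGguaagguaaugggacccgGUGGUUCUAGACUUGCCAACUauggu
On GRCm38.p6 they lie on the minus strand at chr6:30169668-30169737 (Mir183), chr6:30169446-30169551 (Mir96) and chr6:30165918-30165992 (Mir182). Mir183 and Mir96 are 116 bases apart, and Mir182 follows 3453 bases further downstream, so that the cluster spans 3820 bases. RefSeq places all 3 inside the long non-coding RNA gene Mirc35hg at chr6:30158640-30174125, on the same strand.

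The letters GGAC, the core of the sequence context that METTL3 prefers, were searched in the hairpins on both strands. They occur once in Mir182, from base 43, in the loop side between the 5p arm, which ends at base 31, and the 3p arm, which starts at base 50. They are not in Mir183 or Mir96, and the reverse complement GUCC is in none of the 3. Of the 997 mouse hairpins in RefSeq, 39 to 147 bases long, 244 hold GGAC (24.5%), so a match is common. The wider DRACH context (A, G or U, then A or G, then AC, then A, C or U) occurs 2 times in Mir183, 0 times in Mir96 and 3 times in Mir182, where the GGAC match is part of one of them, and 74.5% of the mouse hairpins hold it. On the other strand it occurs 2 times in Mir183 and once each in Mir96 and Mir182, and 82.6% of the hairpins hold it. A match says nothing about methylation there.

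Deposited TPM values are counts set against 1 total per library, worked back here from the counts and the TPM. Which tags that total holds is not known here. Those totals were 3998058 to 4052812 in si-NC and 4473804 to 6132668 in si-METTL3. Libraries stood apart in some names of invertebrate type. The name bantam-y had 1, 52 and 136 counts in si-NC 1, 2 and 3 and 252, 139 and 116 in si-METTL3 1, 2 and 3, while miR-750-y had 0, 83 and 177 in si-NC and 321, 0 and 0 in si-METTL3. By these counts si-NC 1 stands alone, si-NC 2, si-NC 3 and si-METTL3 1 go together, and si-METTL3 2 and 3 go together. By miR-750-y alone si-NC 1 would go with si-METTL3 2 and 3, a split that was not fitted. Values from fits with the former split, the library set, as a term are given beside the values of the guides, mmu-miR-182-3p, mmu-miR-96-3p, the ratios and the arm balances. In such a fit the group difference rests on si-METTL3 1 against si-NC 2 and 3, and the lone si-METTL3 library is assumed to vary like the others, so its p-values carry little weight. Their part in the results was not tested.

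The 3 guides were among the most abundant microRNAs of these cells. In mean TPM over the 6 libraries, mmu-miR-183-5p ranked 18th of all names, mmu-miR-182-5p 21st and mmu-miR-96-5p 31st. The 6 forms together took 1.98% of these library totals in si-NC and 1.96% in si-METTL3. Their passenger arms ranked 215th (mmu-miR-182-3p), 347th (mmu-miR-183-3p) and 597th (mmu-miR-96-3p).

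Both arms of miR-182 were higher after METTL3 siRNA, while neither arm of miR-183 or miR-96 passed the test. The guide mmu-miR-182-5p stood at 6697, 6841 and 6764 TPM in si-NC and at 7513, 7265 and 7170 TPM in si-METTL3. All 3 si-METTL3 libraries were above all 3 si-NC libraries, on this scale and on the TMM scale described next, and 41.2% of all tested names likewise showed no overlap on the latter, in one direction or the other. Scaled by the trimmed mean of M-values (TMM), a method that sets a library's scale by the bulk of its names, the mean level was 6612 ± 65.6 CPM (the TMM-scaled counterpart of TPM) in the controls and 7487 ± 70.9 CPM after METTL3 siRNA (SD, n = 3 each). The fold change was 1.13 (95% interval 1.07 to 1.20), a log2 difference of 0.18 ± 0.04 (SE), with an adjusted p of 6.94e-04 in edgeR's quasi-likelihood test with Benjamini-Hochberg adjustment over all names.

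The passenger mmu-miR-182-3p had 223, 182 and 212 counts in si-NC and 441, 296 and 256 counts in si-METTL3, which are 55.0, 45.5 and 53.0 TPM against 71.9, 66.2 and 56.0 TPM. The groups did not overlap, although the lowest si-METTL3 library lay close to the highest si-NC library. The fold change of the TMM-scaled level was 1.33 (95% interval 1.15 to 1.54), a log2 difference of 0.41 ± 0.10 (SE), with an adjusted p of 0.0033 in the same edgeR test. In all, 2 of the 6 members passed, both higher, where 29.3% of the 622 names tested passed in either direction and 17.7% passed as higher. The members' share is near that background and shows nothing particular to the cluster.

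The size of the mmu-miR-182-5p difference rests on the scaling. With library totals alone, with no TMM factors, its log2 difference was 0.11 with an adjusted p of 0.0245 in edgeR, and that of mmu-miR-182-3p was 0.34 with an adjusted p of 0.0129. With the library set as a term the edgeR values were 0.20 (adjusted p 0.0065) and 0.60 (adjusted p 4.43e-04), with 1 si-METTL3 library behind the difference. Tested with limma on log2(TPM + 1), neither passed, with differences of 0.11 (adjusted p 0.226) and 0.33 (adjusted p 0.121).

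The guide mmu-miR-183-5p, the most abundant member, stood at 7952, 7821 and 8048 TPM in si-NC and at 7516, 7410 and 7686 TPM in si-METTL3. On this scale the si-METTL3 libraries were all lower, where 43.4% of all tested names had groups that did not overlap in deposited TPM. After TMM scaling the groups overlapped, at 7758 ± 130 CPM and 7715 ± 205 CPM (SD, n = 3 each). The log2 difference was -0.0080 ± 0.039 (SE; 95% interval -0.09 to 0.07; adjusted p 0.914, edgeR).

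The guide mmu-miR-96-5p stood at 5348, 4933 and 4921 TPM in si-NC and at 4671, 4626 and 4834 TPM in si-METTL3. Its si-NC 1 value was well above the other two. In TMM-scaled CPM the groups overlapped, at 4953 ± 299 and 4822 ± 157 (SD, n = 3 each), and the log2 difference was -0.04 ± 0.045 (SE; 95% interval -0.13 to 0.05; adjusted p 0.572, edgeR). With library totals alone the differences were -0.08 for mmu-miR-183-5p (adjusted p 0.139) and -0.11 for mmu-miR-96-5p (adjusted p 0.0554) in edgeR. With the library set as a term both were at -0.03 (adjusted p 0.812 and 0.825, edgeR). Neither of these 2 guides passed in any of these fits.

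**Figure D1:**
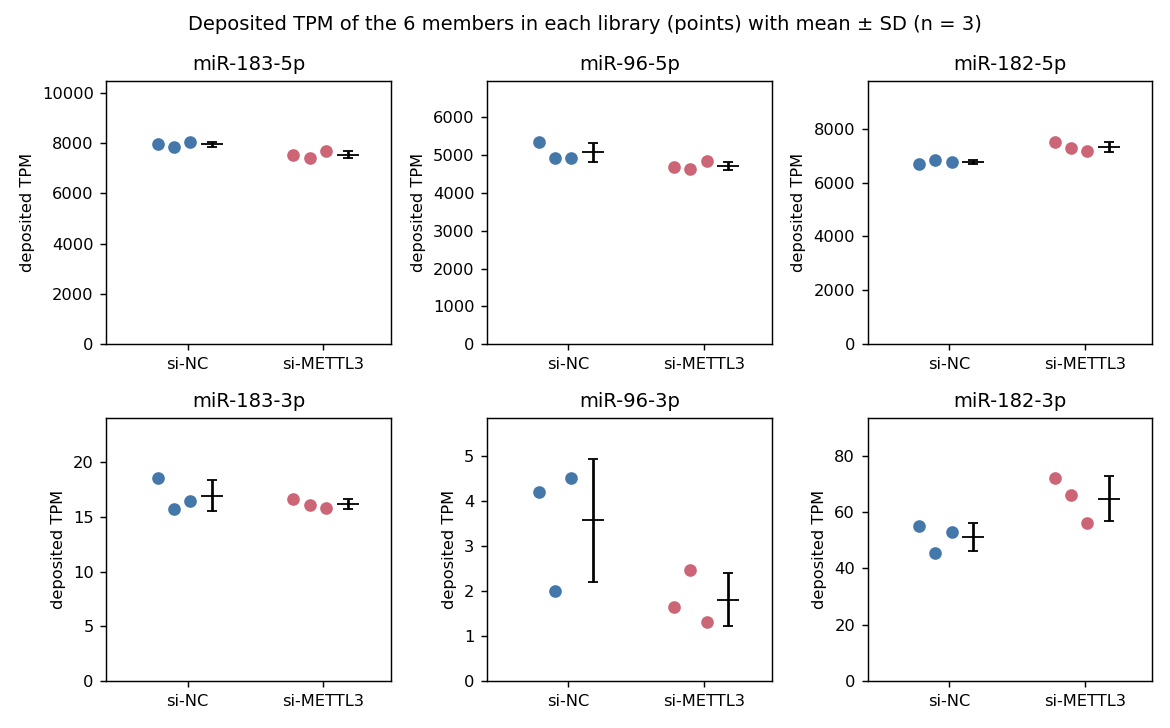
Deposited TPM (vertical axis, from 0) of each of the 6 mature forms, one panel each, with a point per library and the mean ± SD (n = 3) beside the si-NC and si-METTL3 points. The mmu-miR-182-5p points lie between 6697 and 6841 TPM in si-NC and between 7170 and 7513 TPM in si-METTL3, while mmu-miR-183-5p and mmu-miR-96-5p lie lower in si-METTL3 on this scale.

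The remaining passenger arms were scarce. For mmu-miR-183-3p, 75, 63 and 66 counts in si-NC faced 102, 72 and 72 in si-METTL3, which are 18.5, 15.8 and 16.5 TPM against 16.6, 16.1 and 15.8 TPM. The groups overlapped, with a log2 difference of 0.00077 ± 0.17 (SE; 95% interval -0.34 to 0.34; adjusted p 0.998, edgeR). For mmu-miR-96-3p, the rarest member, 17, 8 and 18 counts in si-NC faced 10, 11 and 6 in si-METTL3.

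In TPM these are 4.19, 2.00 and 4.50 against 1.63, 2.46 and 1.31. The groups overlapped because si-NC 2 lay below si-METTL3 2. The log2 difference of mmu-miR-96-3p was -0.93 ± 0.42 (SE; 95% interval -1.78 to -0.07), with an unadjusted p of 0.036 and an adjusted p of 0.106 in edgeR. Without si-NC 2 it was -1.22 with an adjusted p of 0.045, with the library set as a term -0.93 (adjusted p 0.289, edgeR), and in limma on log2(TPM + 5), which shrinks low values, -0.32 (adjusted p 0.120). With 43 counts in si-NC and 27 in si-METTL3, the depth allows no firmer statement.

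**Figure D2:**
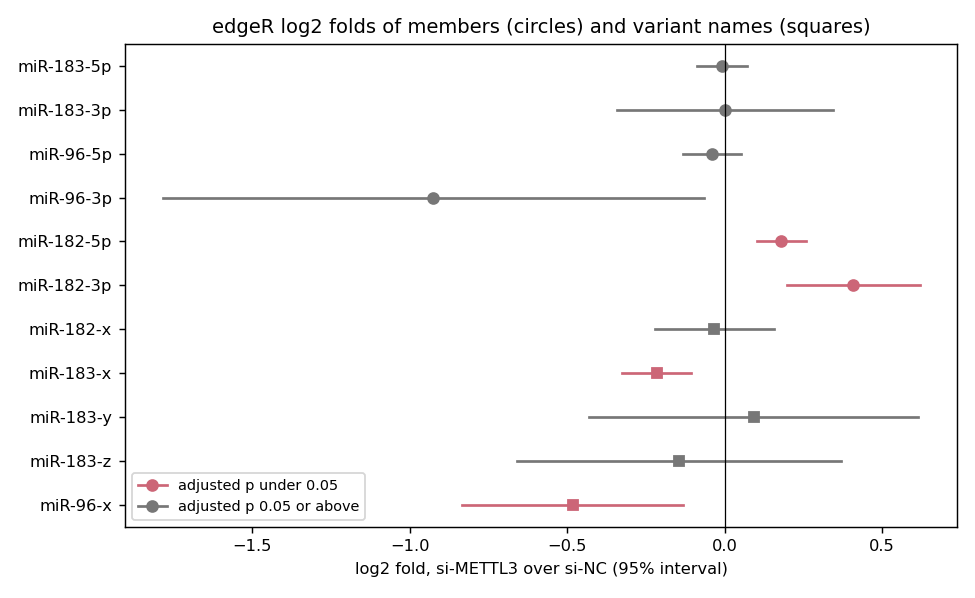
Log2 fold of si-METTL3 over si-NC from the edgeR fit, on the horizontal axis, with 95% intervals as lines, for the 6 members (circles) and for 5 variant names described further on (squares), red where the adjusted p is under 0.05. The intervals of mmu-miR-182-5p (0.10 to 0.26) and mmu-miR-182-3p (0.20 to 0.62) lie above 0, those of the other guides straddle it, and that of mmu-miR-96-3p (-1.78 to -0.07) is the widest.

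**Figure D3:**
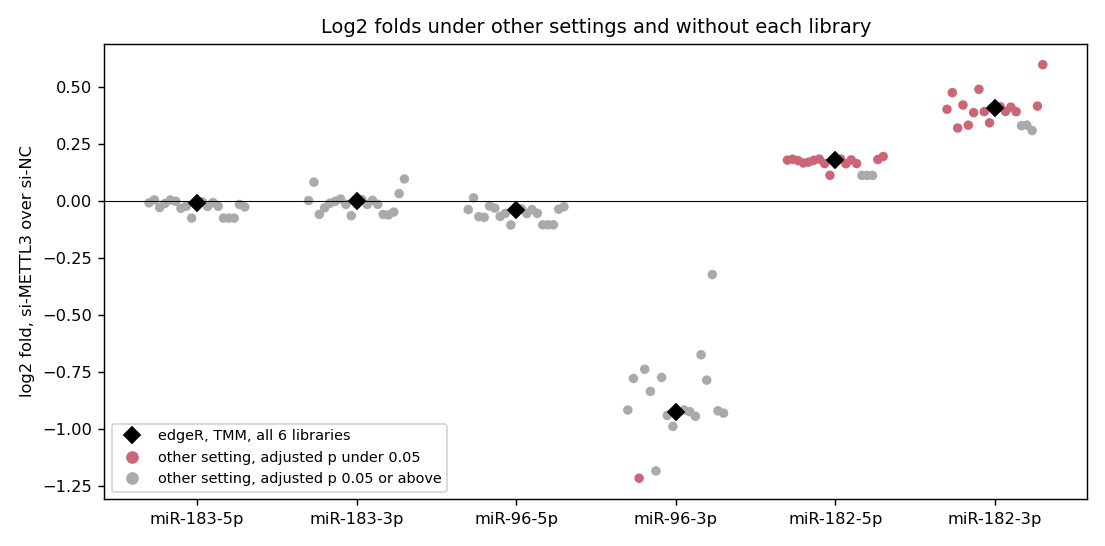
Log2 fold of si-METTL3 over si-NC (vertical axis) of each member under each alternative, left-out libraries included, as points that are red where the adjusted p is under 0.05, with the value from edgeR, TMM and all 6 libraries as a black diamond. mmu-miR-182-5p lies between 0.11 and 0.20 and mmu-miR-182-3p between 0.31 and 0.60, both past the threshold in 16 of 19 alternatives (15 of 18 without the library set term), while mmu-miR-183-5p passes in 0 of 19.

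Read within each library, the makeup of the cluster needs no scaling between libraries. Of all cluster counts, mmu-miR-182-5p took 33.4%, 34.8% and 34.1% in si-NC and 38.0%, 37.5% and 36.3% in si-METTL3. mmu-miR-183-5p took 39.6%, 39.8% and 40.6% against 38.0%, 38.2% and 38.9%, and mmu-miR-96-5p 26.6%, 25.1% and 24.8% against 23.6%, 23.9% and 24.5%. For each of the 3 guides the groups do not overlap, with mmu-miR-182-5p higher and the other guides lower in si-METTL3. Of all tested names, 43.4% had groups that did not overlap in deposited TPM. That is a level per name and not a share within a cluster, for which no such background was computed. Since shares of 1 sum must trade off, the shares of the guides are not 3 separate results.

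**Figure D4:**
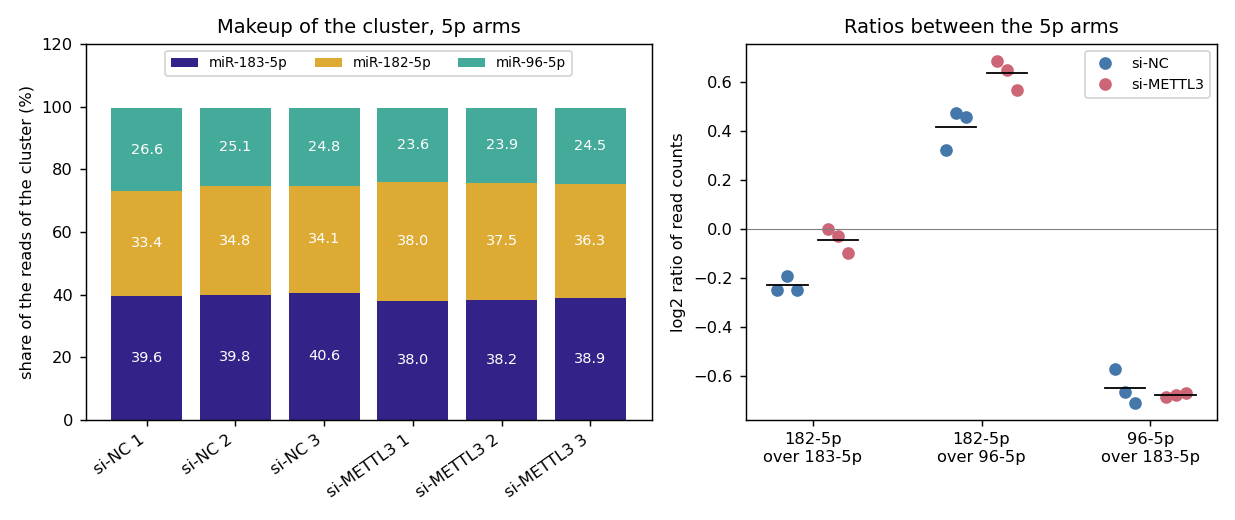
Left, the percent of the cluster's counts taken by each 5p arm in each library, as stacked bars; right, the log2 ratios between the 5p arms, with a point per library and a line at each group's mean. The mmu-miR-182-5p share is 34.1% ± 0.722 among controls and 37.2% ± 0.865 after METTL3 siRNA (SD, n = 3 each). Both ratios with mmu-miR-182-5p are higher in all 3 si-METTL3 libraries, for which no background over other ratios was computed.

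The ratio of mmu-miR-182-5p to mmu-miR-183-5p counts was 0.842, 0.875 and 0.840 in si-NC and 1.00, 0.980 and 0.933 in si-METTL3. In si-NC mmu-miR-183-5p was thus ahead of mmu-miR-182-5p in every library, and in si-METTL3 1 the 2 guides were level. The log2 difference of this ratio was 0.19, without overlap. Its two-sided exact permutation p was 0.1, the smallest that 3 against 3 libraries can give, and 0.15 adjusted over the 3 ratios of guides. How often ratios of guides in other clusters are without overlap was not computed.

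The ratio of mmu-miR-182-5p to mmu-miR-96-5p was 1.25, 1.39 and 1.37 in si-NC and 1.61, 1.57 and 1.48 in si-METTL3, a log2 difference of 0.22 with the same exact p of 0.1. The ratio of mmu-miR-96-5p to mmu-miR-183-5p was 0.673, 0.631 and 0.611 against 0.621, 0.624 and 0.629. There the groups overlapped, with a log2 difference of -0.03 and an exact permutation p of 0.7. The first 2 ratios share mmu-miR-182-5p and are not separate evidence.

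A limma fit over 67 pairs of guides whose hairpins lie within 10 kb on 1 strand, each guide with a mean of at least 10 counts and a single hairpin, chosen after seeing the data, put the ratios in the setting of other clusters. In that fit 8.96% of the pairs passed. The difference was 0.19 ± 0.06 (SE; adjusted p 0.127) for mmu-miR-182-5p over mmu-miR-183-5p and 0.22 ± 0.07 (SE; adjusted p 0.127) for mmu-miR-182-5p over mmu-miR-96-5p, so neither passed. The ratio of mmu-miR-96-5p to mmu-miR-183-5p gave -0.03 ± 0.06 (SE; adjusted p 0.807). With the library set as a term both ratios with mmu-miR-182-5p were at 0.22 (adjusted p 0.400, limma), and the third was at 0.0010.

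The summed output of the cluster has no direction of its own. In TMM-scaled CPM it was 19393 ± 424 for the controls and 20108 ± 288 after METTL3 siRNA, and in deposited TPM it was 19847 ± 211 and 19646 ± 226 (SD, n = 3 each). The order of the 2 groups turns with the scaling.

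Each hairpin delivered almost all of its counts from the 5p arm. The 3p arm gave 0.232%, 0.201% and 0.204% of the miR-183 counts in si-NC and 0.221%, 0.217% and 0.205% in si-METTL3. For miR-182 it gave 0.815%, 0.661% and 0.777% against 0.948%, 0.903% and 0.776%, and for miR-96 0.0784%, 0.0405% and 0.0913% against 0.0349%, 0.0531% and 0.0272%. In every library miR-182 kept the largest 3p share of the 3 and miR-96 the smallest.

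Among the 118 mouse hairpins with a mean of at least 10 counts in each arm, a limit that leaves out those with scarcer passengers, the excess of 5p over 3p ranked 2nd for miR-96, 7th for miR-183 and 16th for miR-182. The arm balance did not pass the test for any of the 3 in the limma fit over those hairpins, where 10.2% of the hairpins passed. The log2 change of the 5p to 3p ratio was -0.01 ± 0.10 (SE; adjusted p 0.977) for miR-183, 0.82 ± 0.37 (SE; adjusted p 0.232) for miR-96 and -0.22 ± 0.13 (SE; adjusted p 0.310) for miR-182. For miR-182 it ranged from -0.31 without si-METTL3 3 to -0.13 without si-NC 2 when each library was left out. With the library set as a term, chosen after seeing the data, it was -0.41, against -0.12 for miR-183 and 0.80 for miR-96. A change of mmu-miR-182-3p beyond that of its own guide was not shown by this test.

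**Figure D5:**
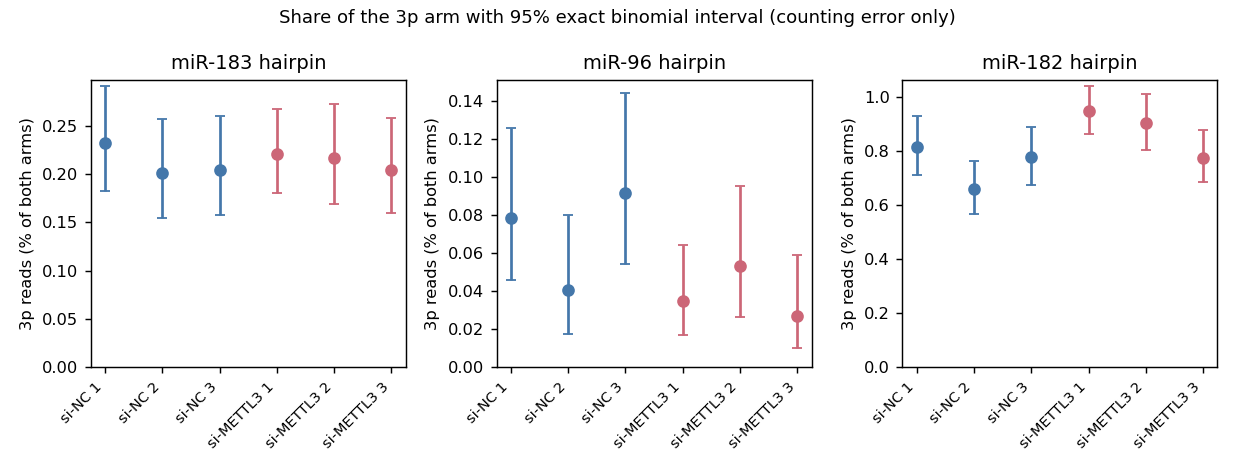
Percent of each hairpin's counts that come from the 3p arm (vertical axes, from 0, each with its own scale), as a point per library with an exact (Clopper-Pearson) 95% interval that covers counting error only. miR-182 lies at 0.661% to 0.948%, miR-183 at 0.201% to 0.232% and miR-96 at 0.0272% to 0.0913%, where the intervals are widest for their level.

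The table also lists further names with the sequences of the cluster under other endings. They differ at their ends from the mouse forms, except miR-96-z, which differs from mmu-miR-96-5p by an added T inside. Those ending in x are shown, with the seed in capitals as counted from their own first base, because 2 of them passed the edgeR test. Both were lower in si-METTL3 and without overlap. Of all tested names, 29.3% passed in either direction, 11.6% passed as lower and 41.2% showed no overlap in TMM-scaled CPM.
miR-182-x: tTTGGCAAtggtagaactcacaccgga
miR-183-x: tATGGCACtggtagaattcactga
miR-96-x: cTTTGGCActagcacatttttgct
miR-182-x and miR-183-x start at the same base as the mouse guide and run longer at the 3′ end, and in each the last base is not in the hairpin. miR-96-x starts 1 base earlier than mmu-miR-96-5p, which moves its seed by 1 base, and that added first base is not the one the hairpin has there.

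The longer form miR-183-x stood at 480 ± 21.9 CPM in the controls and 413 ± 16.2 CPM after METTL3 siRNA (SD, n = 3 each), without overlap. It fell by 0.22 ± 0.05 (SE) on the log2 scale, with an adjusted p of 0.0027 in edgeR. Set against its guide it was 6.19 ± 0.312 counts per 100 of mmu-miR-183-5p in the controls and 5.35 ± 0.101 after METTL3 siRNA, a log2 difference of -0.21 ± 0.07 (SE) that did not pass in limma over 93 such pairs (adjusted p 0.0885). With the library set as a term that ratio was -0.19 (adjusted p 0.517, limma).

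The shifted form miR-96-x stood at 19.8 ± 1.08 CPM in the controls and 14.2 ± 2.03 CPM after METTL3 siRNA (SD, n = 3 each), without overlap. It fell by 0.48 ± 0.17 (SE) on the log2 scale (adjusted p 0.035, edgeR). Per 100 counts of mmu-miR-96-5p it was 0.399 ± 0.00575 against 0.294 ± 0.0325, a log2 difference of -0.45 ± 0.09 (SE; adjusted p 0.019, limma), 1 of 3 such pairs of the cluster to pass, where 10.8% of all pairs passed and 3.23% passed as lower. That call was lost when any of 4 libraries was left out, the first 2 of either group, with an adjusted p in limma between 0.052 and 0.078, while the difference stayed between -0.46 and -0.39. With the library set as a term it was -0.52 (adjusted p 0.239).

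The longer form miR-182-x did not pass, with 67.3 CPM in si-NC against 66.0 CPM in si-METTL3, a log2 difference of -0.03 (adjusted p 0.844, edgeR). Per 100 counts of mmu-miR-182-5p it was 1.02 ± 0.0979 and 0.881 ± 0.0530 (SD, n = 3 each), with overlap and an adjusted p of 0.166 in limma. Of the scarcer forms, miR-183-y, a 3p form that starts 1 base later, differed by 0.09 (adjusted p 0.838, edgeR), and miR-183-z, a 5p form that starts 1 base later, by -0.14 (adjusted p 0.722, edgeR). The name miR-96-z had 46 counts in all and was not tested.

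The patterns of the members over the 6 libraries were set against all tested mouse names by Pearson's r of log2 CPM, as a description over 6 libraries that share their scaling. The names most like mmu-miR-182-5p were miR-425-5p (0.997), miR-503-5p (0.996) and miR-26a-5p (0.992). Those most like mmu-miR-183-5p were miR-130b-5p (0.895), miR-148b-3p (0.885) and miR-465a-5p (0.826).

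For mmu-miR-96-5p they were miR-5100 (0.953), miR-186-5p (0.916) and miR-20a-3p (0.866). For the passengers they were miR-151-3p (0.969), miR-34b-3p (0.961) and miR-26b-3p (0.961) for mmu-miR-182-3p, and miR-1943-5p (0.906), miR-342-5p (0.901) and miR-34b-5p (0.889) for mmu-miR-183-3p. Within the cluster r was 0.852 between the 2 arms of miR-182 and 0.748 between mmu-miR-183-5p and mmu-miR-96-5p. It was -0.242 between mmu-miR-182-5p and mmu-miR-183-5p and -0.325 between mmu-miR-182-5p and mmu-miR-96-5p.

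The difference of mmu-miR-182-5p is smaller than that of most names that passed, and near the median of abundant ones. Of the 71 tested names with a mean of at least 1000 CPM, 45 passed, 24 higher and 21 lower, with a median absolute log2 difference of 0.155 over the 71 and a median SE of 0.0428. Of all 182 names that passed, 19 had a smaller absolute log2 difference than mmu-miR-182-5p and 87 a smaller one than mmu-miR-182-3p.

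The authors' deposited table of differential microRNAs lists 50 names, none of them a member of the cluster. Its smallest absolute log2 fold is 1.01. In the authors' deposited table of all names the log2 fold is 0.11 for mmu-miR-182-5p, with a false discovery rate of 1.58e-04, and 0.34 for mmu-miR-182-3p, with a false discovery rate of 0.0054. In the same authors' deposited table it is -0.08 for mmu-miR-183-5p and -0.11 for mmu-miR-96-5p, with false discovery rates of 1 and 0.894.

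Other microRNAs that share a tissue or a target with the cluster were set beside it by counts. In these bulk samples fewer cells of a type and less RNA per cell cannot be told apart. Of the miR-200 family, epithelial microRNAs that repress the transcription factors ZEB1 and ZEB2, 4 of 10 listed forms were tested, 3 fell and none rose, where 11.6% of all tested names fell, with a median log2 difference of -0.55 beside 0.0054 over all names. miR-200a-3p fell by 0.71 (adjusted p 6.61e-04) and miR-141-3p fell by 0.52 (adjusted p 7.1e-04) in edgeR. The miR-200 forms summed to 102 to 124 TPM in si-NC and 69.0 to 73.3 TPM in si-METTL3.

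Of the microRNAs that share neurons and sensory organs with the cluster, 3 of 11 were tested and 1 rose, miR-128-3p by 0.41 (adjusted p 2.5e-05, edgeR), where 17.7% of all tested names rose. The most abundant of those tested, miR-7a-5p, stood at 1800 CPM in si-NC and 2028 CPM in si-METTL3. Its log2 difference of 0.17 did not pass (adjusted p 0.314, edgeR). The defining neuronal miR-124-3p had 6 counts in si-NC and 7 in si-METTL3. Of microRNAs reported in other cells to repress FOXO1, a target that miR-183, miR-96 and miR-182 share in such reports, 3 of 8 were tested. All 3 rose, beside the same 17.7%: miR-27a-3p by 0.31, miR-27b-3p by 0.33 and miR-135b-5p by 0.85 (adjusted p 0.034 for the last, edgeR). The last was scarce, with 39 counts in si-NC and 85 in si-METTL3. Whether the rises of miR-27a-3p and miR-27b-3p are separate was not tested.

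Germ-line microRNAs of the X chromosome, the markers of the labelled cell type, were present, but so were listed markers of other cells. Of 13 listed, all were in the table and 11 were tested. Of these 2 fell, miR-741-3p and miR-743b-3p, and none rose, where 11.6% of all tested names fell and 17.7% rose. The names miR-465a-3p, miR-465b-3p and miR-465c-3p hold identical counts, 86 in si-NC and 89 in si-METTL3. The same reads thus enter the 11 and the sum below once for each of these names. The 13 forms summed to 159 to 194 TPM in si-NC and 135 to 149 TPM in si-METTL3. The blood forms summed to 133 to 158 TPM in si-NC and 159 to 164 TPM in si-METTL3. For muscle the sums were 92.0 to 96.4 TPM in si-NC and 47.8 to 64.2 TPM in si-METTL3. For endothelium they were 78.5 to 97.8 TPM in si-NC and 64.6 to 76.3 TPM in si-METTL3. The listed forms of neurons and sensory organs had a larger sum than the germ-line forms, mostly from miR-7a-5p. It was 1948 to 2188 TPM in si-NC and 2053 to 2446 TPM in si-METTL3. These sums alone do not identify the cells. Of the markers of other cells, 1 of 6 tested blood forms rose (miR-486a-5p) and 1 of 2 tested muscle forms fell (miR-206-3p), while the liver form was not tested and both endothelial forms did not pass. Their part in the results for the cluster was not tested.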

How the data were processed

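Small RNA of 3 si-METTL3 and 3 si-NC libraries was analysed from the microRNA table that the authors deposited, which holds whole-number counts and TPM per name and library. Per the file headers the values are counts and TPM; each deposited TPM equals its count over 1 total per library on the usual TPM scale, to within 5e-05 TPM, and those totals were used as library sizes. The table's names hold 91.4% to 92.1% of the totals. Fastp, Bowtie2, StringTie, RSEM and mm10 are named in the submitters' processing notes, with no role given, and the matching of tags to names was not described in them. The deposited log2 fold, p-value and FDR columns were copied as the authors' values.

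Counts were fitted with edgeR 4.0.16 (R 4.3.3; TMM scaling, filterByExpr, quasi-likelihood test, robust), on all names, with Benjamini-Hochberg adjustment over the 622 names kept and a threshold of 0.05. Of these 182 passed, 110 higher (17.7%) and 72 lower (11.6%); with library totals alone 83 were higher and 102 lower (44.9% higher against 60.4%). TMM scaling moved the log2 differences by 0.067. Ratios were tested with limma 3.58.1 on log2((count + 0.5)/(count + 0.5)) or by exact permutation, two-sided. DESeq2 1.42.0, limma on log2(TPM + k), other filters, a library set term, a replicate block and leaving out each library were the alternatives; the limma fits over clustered guides and over variants, and the library set term for arm balance, were added after seeing the data. The main edgeR fit and the limma fit of arm ratios were tested on simulated data, and the other fits were not. The members, the gene lists and the library sets were chosen with earlier results of these data known. Named were all members, their variants and the 3 names most like each member except mmu-miR-96-3p. From the lists mainly names that passed were given, and these are not always the most abundant of their list. Genome positions and sequences are RefSeq's on GRCm38.p6. Intervals of shares are exact binomial and cover counting error only. There were 2 emptied lines in the table, not analysed here.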

Additional observations from a re-analysis of the deposited data

How the results depend on the processing

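The 2 calls of miR-182 held in 16 of 19 alternatives, or 15 of 18 without the library set term, which rests on 1 si-METTL3 library, and were lost in limma on log2(TPM + k) alone, for k of 1, 0.5 and 5, where 0 members passed. There miR-182-5p gave 0.11 each time (adjusted p 0.226, 0.225 and 0.215), and miR-182-3p gave 0.33, 0.33 and 0.31 (adjusted p 0.121, 0.124 and 0.0845). The names called fell from 182 to 107 (k of 1) and 106 (k of 0.5). The cause was not tested. Leaving out each library, miR-182-5p ranged from 0.17 to 0.18 and miR-182-3p from 0.32 to 0.49.

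Values near 0 changed sign. Leaving out each library gave -0.032 to 0.0047 for miR-183-5p, -0.072 to 0.014 for miR-96-5p, -0.059 to 0.083 for miR-183-3p, -0.076 to 0.027 for the arm balance of miR-183 and -0.060 to 0.0090 for the ratio of miR-96-5p to miR-183-5p, in both of its tests. For miR-183-3p the sign also turned to -0.015 with DESeq2 size factors, -0.0645 with library totals alone, -0.0152 with a 10 CPM filter, -0.0147 with DESeq2's Wald test and -0.0593, -0.0610 and -0.0487 with limma (k of 1, 0.5 and 5). The arm balance of miR-183 turned to 0.0028 with a pseudocount of 5, and the limma ratio of miR-96-5p to miR-183-5p to 0.0010 with the library set term. miR-96-3p ranged from -1.22 to -0.74 over left-out libraries, passed only without si-NC 2, and was -0.32 in limma with k of 5. It has no value under the 10 CPM filter, and the miR-96 arm balance none at 50 counts per arm.

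The summed CPM was 19847 in si-NC and 19646 in si-METTL3 with library totals alone, and 19976 and 20616 with the variants added. Same-numbered libraries deviated in opposite directions (correlations of -0.52, -0.32 and -0.43), so the numbers do not pair them. Other libraries did deviate together across the groups. The correlation was 0.41 and 0.42 for si-NC 1 with si-METTL3 2 and 3, and 0.37 and 0.51 for si-METTL3 1 with si-NC 2 and 3. It was -0.26 for si-NC 2 with si-METTL3 3 and -0.37 for si-NC 3 with si-METTL3 2. With the replicate block 176 names passed, miR-182-5p was 0.18 (adjusted p 0.0007, edgeR), miR-182-3p 0.40 (adjusted p 0.0039, edgeR), and, in limma, 0 of the 12 arm balances called without it passed. For miR-96-x over its guide the block gave an adjusted p of 0.052 in limma. The library set term left 122 names. Depth limits the 3p arms of miR-96 and miR-183 most.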

Other observations

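Names of other species that share a seed with a guide of the cluster were too scarce to test. The seed of miR-96-5p occurred in miR-263-x, with 4, 3 and 2 counts in si-NC and 13, 19 and 6 in si-METTL3, and in miR-1271-x, with 6 counts in all. The seed of miR-183-5p occurred in miR-263-z, with 2, 7 and 5 counts in si-NC and 2, 2 and 2 in si-METTL3, and in miR-228-x, with 6 counts in all.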
